A study of Mus musculus with 12 samples.

Results

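Bile acids that reach the end of the small intestine are taken back into the body, and 9 genes of this route were followed on ileum arrays from mice with and without the *Csf1r* enhancer FIRE. They are *Slc10a2* and *Fabp6* for uptake and transport within the cell, *Slc51a* and *Slc51b* for export, *Nr1h4* and *Nr0b2* for sensing, and *Fgf15*, *Fgfr4* and *Klb* for the hormone signal to the liver. Each was taken by its exact symbol among the 21218 transcript clusters with a single gene symbol, of 35556 clusters on the array, and each had 1 cluster. All 9 were higher in ileum than in hippocampus, by 3.0-fold for *Klb* to 296-fold for *Fabp6*. None passed the test between FIRE +/+ and FIRE -/- ileum, although *Fgf15* read higher on each FIRE -/- array than on any FIRE +/+ array, and the FIRE -/- array G09 had *Slc10a2* and *Fabp6* well below the other 5.

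Expression was measured with Affymetrix Mouse Gene ST arrays in ileum and hippocampus of FIRE +/+ and FIRE -/- mice, with 3 arrays in each of the 4 groups and 12 in all. All mice were 6 weeks old and of strain C57BL/6J/CBA. Both tissues were snap frozen after perfusion with saline, and the ileum pieces were described as taken with a Peyer's patch, a group of lymphoid follicles in the gut wall. B cell genes were high on only 2 of the 6 ileum arrays, D09 and F09, with list means of 7.27 and 7.42, while the other 4, at 3.29 to 3.57, were nearer to hippocampus, at 2.67 to 2.96. FIRE, the fms-intronic regulatory element, is an enhancer inside *Csf1r*, the gene of the macrophage growth factor receptor. It was deleted in the germ line with CRISPR/Cas9 in oocytes of C57BL/6J/CBA F1 mice, so the deletion is present in every cell, enterocytes included, and the line goes back to 1 male founder. The FIRE +/+ ileum arrays C09 and D09 came from males and E09 from a female, and the FIRE -/- arrays F09 and H09 came from females and G09 from a male, by their labels. The sources used here do not say where along the ileum each piece was cut, or whether the mice were littermates. Values are RMA signals on the log2 scale, so that a difference of 1 is a 2-fold change, and array medians lay between 4.29 and 4.46.

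Bile acids made in the liver help to digest fat, and most are recovered in the distal ileum, where the sodium-dependent carrier encoded by *Slc10a2* takes them up across the brush border. Inside the enterocyte they activate FXR, a nuclear receptor encoded by *Nr1h4* that pairs with RXR and drives *Fabp6*, *Slc51a*, *Slc51b*, *Nr0b2* and *Fgf15*. FGF15 then travels in the portal blood to hepatocytes, where FGFR4 and its co-receptor β-Klotho lower bile acid synthesis, so the ileum reports its bile acid load to the liver. Uptake genes of this route mark the distal end of the small intestine, whereas lactase and GATA4 mark its proximal and middle parts.

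FXR with RXR is known to bind an inverted repeat of the half-site AGGTCA, followed by 1 spacer base and TGACCT. Promoters of 300 bases, 250 before and 50 after the start site, were taken from RefSeq (GRCm38.p6) for 8 of the 9 genes. Matches to this repeat with up to 3 mismatches in its 12 informative bases were listed within the 250 bases before the start site only. The repeat reads the same on both strands. The 3 stretches that held a match are printed because they belong to genes whose levels are described here, with the matches in capitals and the strand of the gene. The *Fabp6* stretch lies at chr11:43601672-43601804, the *Slc51a* stretch at chr16:32487926-32487978 and the *Slc51b* stretch at chr9:65422928-65422980, all on the minus strand.
Fabp6: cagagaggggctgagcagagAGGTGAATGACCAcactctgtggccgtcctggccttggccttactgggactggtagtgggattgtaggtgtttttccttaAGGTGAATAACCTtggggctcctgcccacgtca
Slc51a: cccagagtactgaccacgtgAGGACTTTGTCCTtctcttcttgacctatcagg
Slc51b: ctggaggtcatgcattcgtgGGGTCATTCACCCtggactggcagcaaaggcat

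*Fabp6* held 2 matches with 2 mismatches each, at positions -222 to -210 and -142 to -130 from the start site. *Slc51a* held 1 match with 3 mismatches at -79 to -67, and *Slc51b* 1 with 3 mismatches at -187 to -175. The closest fits in the promoters of *Slc10a2*, *Nr1h4*, *Nr0b2*, *Fgfr4* and *Klb* had 4 mismatches. Of 32851 RefSeq promoters of this length, 1.14% held the repeat with at most 2 mismatches and 11.4% with at most 3. These matches describe the letters of the promoters and are not measured binding sites.

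The level of each gene in ileum was first set against hippocampus, a tissue that takes no part in bile acid recovery. All 9 genes passed the test as higher in ileum (limma, all 12 arrays in 1 fit). Over all clusters 36.1% were called higher in ileum and 32.2% lower. In whole tissue, fewer cells of a type and less RNA per cell cannot be told apart.

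*Slc10a2* (cluster 10576901), the uptake carrier, read from 5.58 to 9.79 on the 6 ileum arrays and from 2.12 to 2.74, with a median of 2.44, in hippocampus. The difference was 5.85 on the log2 scale (standard error 0.45, limma adjusted p = 1.38e-07), or 57.5-fold. *Fabp6* (cluster 10385337), which encodes the ileal bile acid binding protein, was 296-fold higher at a log2 difference of 8.21 (standard error 0.34, adjusted p = 3.17e-10). The lowest *Fabp6* value in ileum, 9.26, still lay far above the highest in hippocampus, 3.29. The exporter subunits *Slc51a* (cluster 10439068) and *Slc51b* (cluster 10594519), which work only as a pair, were higher by 8.03 (standard error 0.18) and 7.44 (standard error 0.13), or 262-fold and 174-fold. Their ileum values varied little, between 10.49 and 11.18 for *Slc51a* and between 10.17 and 10.88 for *Slc51b*.

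Of the sensors, *Nr1h4* (cluster 10371784) was higher in ileum by 5.16 on the log2 scale (standard error 0.19, limma adjusted p = 1.12e-10). *Nr0b2* (cluster 10508887), which encodes the repressor SHP, was higher by 2.93 (standard error 0.38, adjusted p = 1.72e-05) and ranged in ileum from 4.31, about the array median, to 6.68. The hormone gene *Fgf15* (cluster 10559373) was 49.9-fold higher at a log2 difference of 5.64 (standard error 0.21, adjusted p = 1.01e-10). The genes of its receptor complex, which is best known from hepatocytes, had smaller differences. *Fgfr4* (cluster 10405380) read from 5.98 to 6.60 in ileum and from 3.53 to 3.73 in hippocampus, a log2 difference of 2.64 (standard error 0.09). *Klb* (cluster 10522127) read from 3.74 to 5.06 in ileum, around the array medians, and from 2.75 to 3.36 in hippocampus, a log2 difference of 1.59 (standard error 0.20, adjusted p = 1.40e-05).

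**Figure D1:**
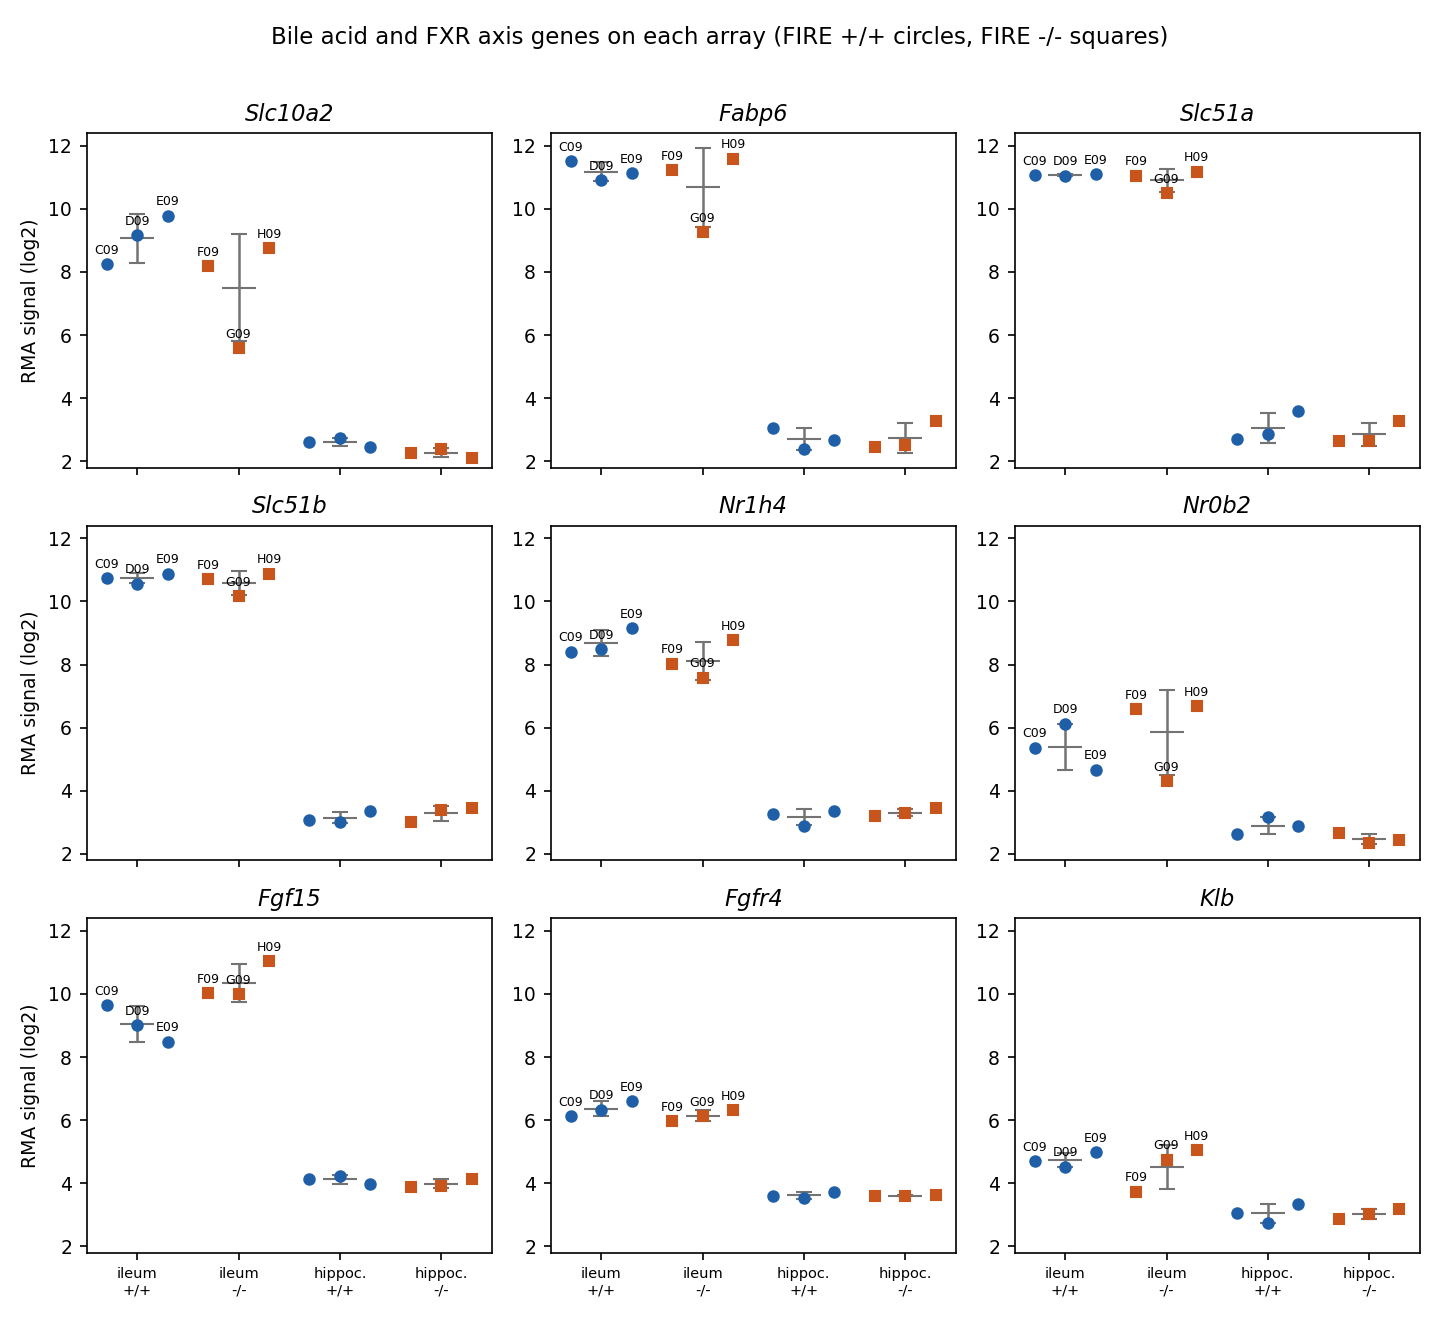
RMA log2 signal of the 9 genes (y axis) in ileum and hippocampus of FIRE +/+ (circles) and FIRE -/- (squares) mice (x axis). Points are arrays, 3 per group, named for the ileum, and bars show the mean and SD. In ileum the array G09 has the lowest *Slc10a2*, at 5.58, and *Fgf15* does not overlap between genotypes, with FIRE -/- arrays at 10.00 to 11.04 and FIRE +/+ arrays at 8.49 to 9.64.

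Markers of gut regions were then read in the pieces. All 7 distal small intestine genes were called higher in ileum than in hippocampus, with a median log2 difference of 5.79. Over all clusters 36.1% were called higher and 32.2% lower. All 11 epithelium genes were called higher too, so a count of calls against hippocampus does not by itself place a piece along the gut. *Naaladl1*, an ileal peptidase gene, was higher by 8.996, *Cubn*, which encodes the vitamin B12 receptor cubilin, by 8.21 and *Osr2* by 6.83. The peptide hormone genes were also higher, *Gcg* by 5.79, *Pyy* by 3.96 and *Nts* by 3.53. Of 11 proximal small intestine genes 7 were called higher and 2 lower, with a median of 1.26. *Fabp1*, the fatty acid binding protein gene of liver and upper gut, was higher by 4.89, *Gip*, a hormone gene of upper gut K cells, by 3.44, *Gata4* by 3.39 and the lactase gene *Lct* by 2.16. The genes called lower, *Cck* at -3.77 and *Onecut2* at -1.64, read 10.26 and 5.56 in hippocampus and draw the median down. *Pdx1*, a duodenal transcription factor gene, differed by 0.36 on the log2 scale and read from 2.55 to 3.68 in ileum. Of 6 measured colon genes 1 was called higher, *Car4* by 0.71, which read 9.40 in hippocampus. The median was 0.23, and *Hoxb13*, a marker of the distal colon, differed by 0.11. *Insl5*, also of this list, read 5.34 on E09, 4.26 on H09 and 2.93 on C09, against 3.13 to 3.49 in hippocampus. Averaged over the list, the arrays deviated from their common mean by -0.35 on C09 to 0.37 on E09, with -0.15 on G09. All 7 distal small intestine genes read above every hippocampus array on each ileum array, and so did the proximal genes *Fabp1* and *Gip*. *Lct* did not, since it read 6.50 on E09, below all hippocampus arrays. *Gata4*, at 4.56 on E09, lay only a little above its highest hippocampus value. The 11 epithelium genes had a mean level between 11.19 and 11.32 on the 6 arrays, within 0.07 of their common mean.

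Hepatocyte RNA was looked for as well, since liver makes *Slc10a1*, *Fgfr4* and *Klb*. *Alb*, which encodes albumin, read 2.69 ± 0.29 (SD, n = 3) in FIRE +/+ and 2.80 ± 0.24 (SD, n = 3) in FIRE -/- ileum, against 2.39 in hippocampus. Of 6 measured hepatocyte genes 2 were called higher in ileum than in hippocampus, *Alb* by 0.36 and *Ahsg* by 0.32, both at low ileum means of 2.74 and 2.56. *Tat* reached 4.66 on E09 but was not called. *Cyp7a1*, the rate-limiting enzyme of bile acid synthesis in the liver, was at 1.94 ± 0.16 (SD, n = 3) and 2.02 ± 0.17 (SD, n = 3), near its mean of 1.91 in hippocampus.

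The question of genotype was taken up within the ileum, FIRE -/- minus FIRE +/+. Over 21218 clusters limma called 0 lower and 0 higher at an adjusted p under 0.05, a share of 0% in each direction, as did an unmoderated test of single clusters after the same adjustment. At an unadjusted p under 0.05 limma counted 720. *Csf1r* itself read 7.41, 8.17 and 7.39 on the FIRE +/+ arrays C09, D09 and E09 and 6.44, 7.53 and 6.86 on the FIRE -/- arrays F09, G09 and H09, so the genotypes overlapped. Of the 9 bile acid genes 7 had a lower mean in FIRE -/- mice and 2 a higher one, where 52.9% of all clusters had a lower mean. Their median log2 difference was -0.21, against -0.0099 over all clusters. One of the 9 did not overlap between genotypes, where 8.04% of all clusters did not, and 1 had an unadjusted p under 0.05, where 3.39% of all clusters did. Both counts refer to *Fgf15*.

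*Fgf15* read 9.64 on C09, 9.01 on D09 and 8.49 on E09 in FIRE +/+ ileum, and 10.02 on F09, 10.00 on G09 and 11.04 on H09 in FIRE -/- ileum. Every FIRE -/- array lay above every FIRE +/+ array, with the smallest gap between C09 and G09. The means were 9.05 ± 0.58 and 10.35 ± 0.59 (SD, n = 3 each), a log2 difference of 1.30 (standard error 0.37, 95% confidence interval 0.43 to 2.18), or 2.47-fold with an interval from 1.34 to 4.54. After adjustment over all clusters it did not pass (limma adjusted p = 0.999). Over 20 other settings the difference lay between 0.96 and 1.60 and the adjusted p between 0.614 and 0.9999. An exact permutation test of 3 arrays against 3 cannot go below a two-sided p of 0.1.

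For the other sensing and signal genes of the route the genotypes overlapped, unlike for *Fgf15*. *Nr1h4*, the bile acid sensor that drives it, read 8.40, 8.48 and 9.14 in FIRE +/+ and 8.02, 7.58 and 8.77 in FIRE -/- ileum, a log2 difference of -0.55 (standard error 0.33, 95% confidence interval -1.33 to 0.23). Its 3 highest arrays held both genotypes. With sex as a covariate the log2 difference of *Nr1h4* was -0.81 (95% confidence interval -1.34 to -0.27). Without H09 it was -0.88 (95% confidence interval -1.54 to -0.22). Both intervals leave out 0, but neither passed (limma adjusted p = 0.9999 and 0.9996). *Nr0b2*, another target of FXR, read 5.37, 6.12 and 4.67 in FIRE +/+ and 6.59, 4.31 and 6.68 in FIRE -/- mice. F09 and H09 were the highest and G09 the lowest of the 6 arrays. The log2 difference was 0.47 (standard error 0.67, 95% confidence interval -1.12 to 2.06). *Fgfr4* had a log2 difference of -0.21 (standard error 0.16, 95% confidence interval -0.58 to 0.16). *Klb* had one of -0.22 (standard error 0.33), carried by the array F09 at 3.74, where the other 5 read 4.53 to 5.06, and it turned to 0.16 without F09.

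*Slc10a2* had the largest difference in means and the widest spread. It read 8.24 on C09, 9.16 on D09 and 9.79 on E09 in FIRE +/+ ileum, and 8.18 on F09, 5.58 on G09 and 8.76 on H09 in FIRE -/- ileum. G09 stood 2.60 below the next array, while the other 5 spanned 1.61 and mixed both genotypes. The log2 difference was -1.56 (standard error 0.82, 95% confidence interval -3.49 to 0.37, limma adjusted p = 0.999) with all arrays and -0.59 without G09. As a ratio of FIRE -/- to FIRE +/+ the interval with all arrays runs from 0.0891 to 1.30, wide enough to take in a large fall or a small rise of the uptake carrier. Sex was not balanced between the genotypes. With sex as a covariate the log2 difference was -2.22 (95% confidence interval -3.36 to -1.08), which leaves out 0 but did not pass (limma adjusted p = 0.9999). The interval also left out 0 in a shared fit of all 12 arrays, -2.96 to -0.15, and without H09, -4.17 to -0.20. Neither passed (limma adjusted p = 0.854 and 0.9996).

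*Fabp6* read 11.51, 10.91 and 11.12 in FIRE +/+ and 11.22, 9.26 and 11.59 in FIRE -/- ileum, where 9.26 is again G09. Both other FIRE -/- arrays lay within or above the FIRE +/+ range. The log2 difference of -0.49 (standard error 0.57) turned to 0.22 without G09. *Slc51a* read 11.07, 11.06 and 11.10 in FIRE +/+ and 11.05, 10.49 and 11.18 in FIRE -/- mice, and *Slc51b* 10.74, 10.56 and 10.88 and then 10.71, 10.17 and 10.88. The exporter subunits had log2 differences of -0.17 (standard error 0.18, 95% confidence interval -0.60 to 0.27) and -0.14 (standard error 0.20, 95% confidence interval -0.61 to 0.33). Without G09 these were 0.039 and 0.067.

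**Figure D2:**
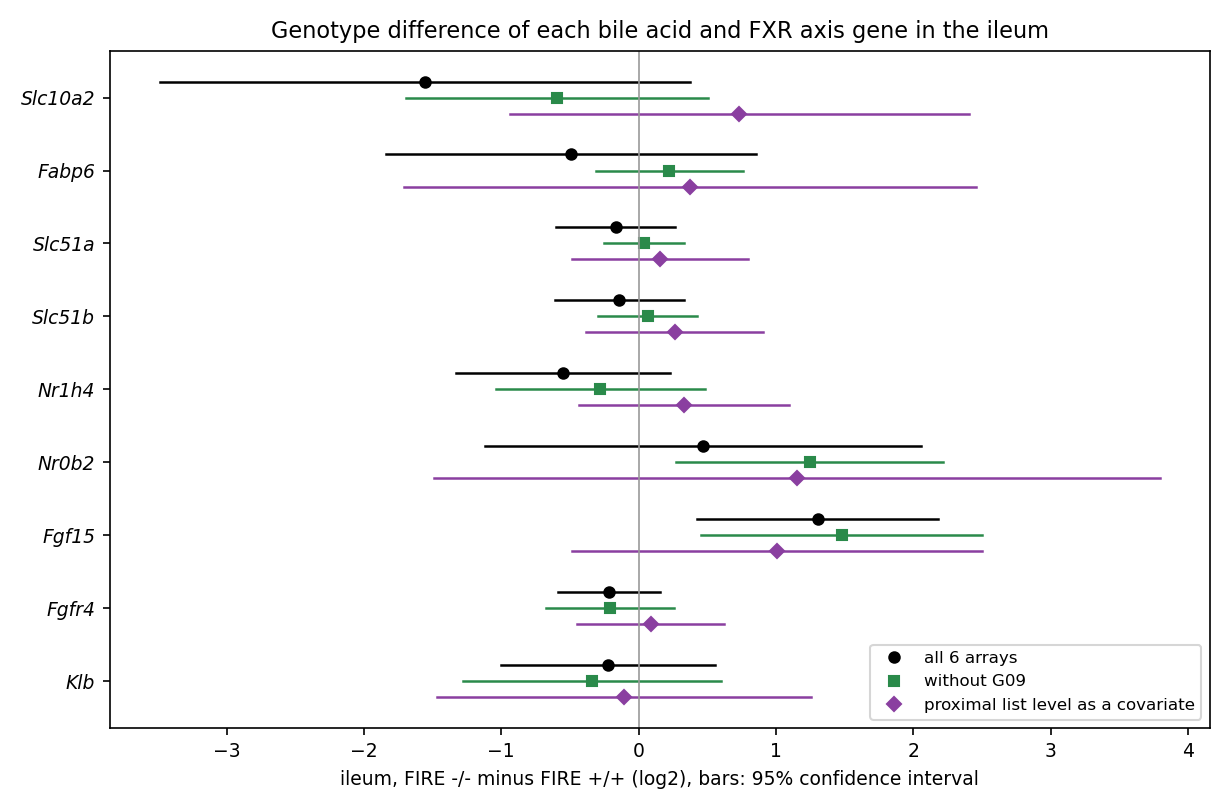
Log2 difference of each gene in the ileum, FIRE -/- minus FIRE +/+ (x axis), with 95% confidence intervals as bars, for all 6 arrays (circles), without the array G09 (squares) and with the mean level of the proximal list as a covariate (diamonds, chosen after seeing the data). With the 6 ileum arrays fitted alone and no covariate, only the *Fgf15* interval of limma, 0.43 to 2.18, leaves out 0. That of an unmoderated test, -0.019 to 2.63 and not drawn, takes in 0. *Fabp6*, *Slc51a* and *Slc51b* cross from below to above 0 without G09.

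Most of the spread of the uptake genes came with a single piece. G09 was the lowest of the 6 ileum arrays for 6 of the 9 genes, where 14.9% of all clusters were lowest there. The 6 were *Slc10a2*, *Fabp6*, *Slc51a*, *Slc51b*, *Nr1h4* and *Nr0b2*. The mean of the other 5 arrays was 9.50-fold above G09 for *Slc10a2*, 4.04-fold for *Fabp6*, 2.99-fold for *Nr0b2*, 1.98-fold for *Nr1h4*, 1.51-fold for *Slc51a* and 1.503-fold for *Slc51b*. *Fgf15*, at 10.00 on G09, lay within the range of the others, 8.49 to 11.04. H09, also FIRE -/-, was the highest array for 5 of the 9, and the FIRE +/+ array E09 for 4, *Slc10a2* and *Nr1h4* among them.

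Several genes of the proximal small intestine were high where *Slc10a2* was low. *Lct* read 10.94 on C09, 8.58 on D09, 6.50 on E09, 11.45 on F09, 11.55 on G09 and 9.77 on H09. The order of the arrays for *Lct*, from E09 up through D09, H09, C09 and F09 to G09, was the reverse of the order for *Slc10a2*. *Gata4*, a transcription factor gene that is active in the proximal gut, followed that order as well, from 4.56 on E09 to 8.69 on G09. *Gip* was at 5.12 on E09, at 6.66 to 6.99 on the other FIRE +/+ arrays and at 7.38 to 8.53 on the FIRE -/- arrays, highest on G09. These relations rest on 6 arrays and are given as a description.

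Averaged over the 11 genes of the proximal list, the arrays deviated from their common mean by 0.03 on C09, -0.32 on D09 and -0.78 on E09 in FIRE +/+ and by 0.25 on F09, 0.71 on G09 and 0.12 on H09 in FIRE -/- mice. In the mean of this list the FIRE -/- pieces lay above the FIRE +/+ pieces, with a narrow gap between C09 and H09. In its median deviation the genotypes overlapped, at -0.08 on C09, -0.27 on D09 and -0.14 on E09 and at -0.14 on F09, 0.81 on G09 and 0.0034 on H09, so the split of the mean rests on a few genes. Of its 11 genes 10 had a positive log2 difference, with a median of 0.29, and none passed the test. *Lct* differed by 2.25 (standard error 1.06), *Fabp1* by 1.84 (standard error 0.78), *Gata4* by 1.83 (standard error 0.86) and *Gip* by 1.68 (standard error 0.51). The iron exporter gene *Slc40a1* went the other way, at -1.14 (standard error 0.55). The distal list varied less, between -0.23 on F09 and 0.17 on E09, and was at 0.04 on G09.

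With the proximal list level as a covariate, chosen after seeing the data, the log2 difference of *Slc10a2* was 0.73 (95% confidence interval -0.94 to 2.40). That of *Fabp6* was 0.37 (95% confidence interval -1.71 to 2.46) and that of *Nr1h4* 0.33 (95% confidence interval -0.44 to 1.09). Each turned from negative to positive, but each interval takes in 0. *Fgf15* was at 1.01 (standard error 0.61, 95% confidence interval -0.49 to 2.50), an interval that takes in 0. Genotype and this list level went together on the 6 arrays, and the position of the pieces along the gut was not measured, so its part in the *Fgf15* and *Slc10a2* values was not tested apart from genotype.

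**Figure D3:**
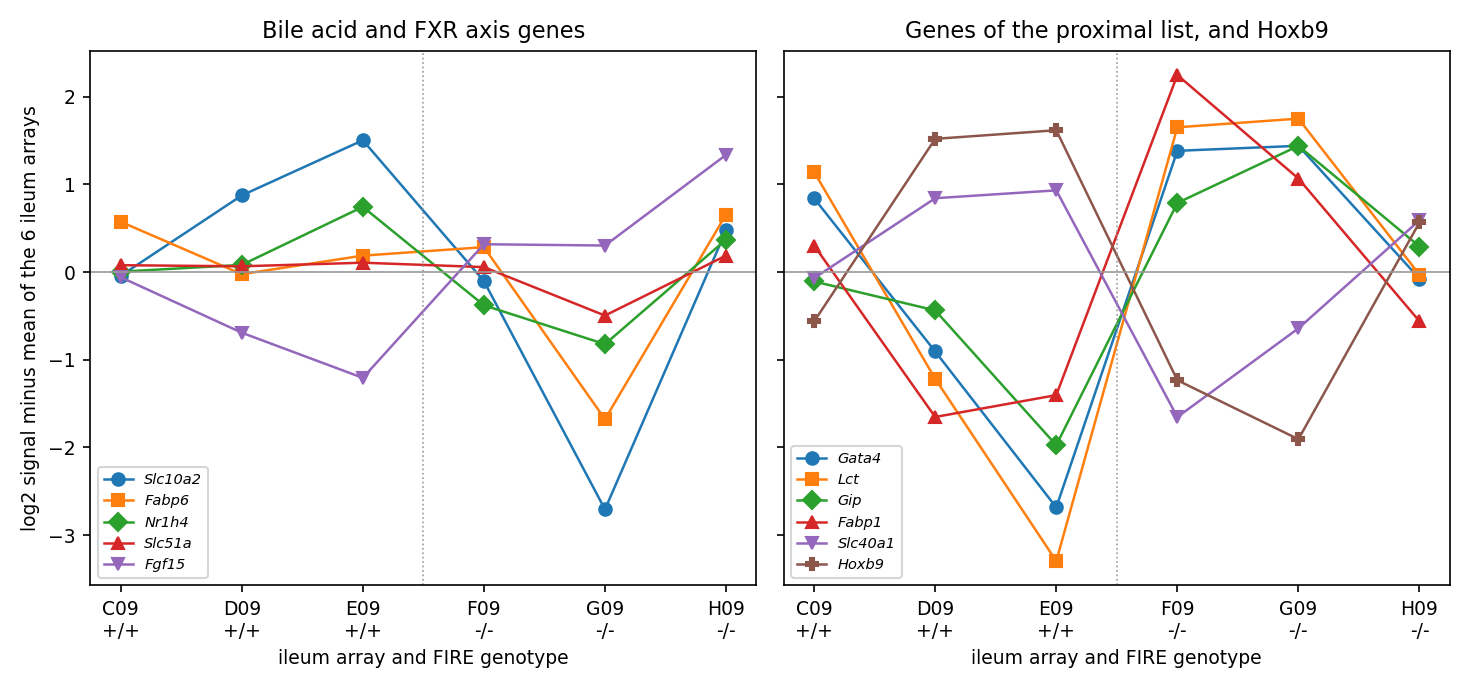
Log2 signal minus the mean of the 6 ileum arrays (y axis) on each array (x axis, FIRE +/+ left and FIRE -/- right of the dotted line) for 5 bile acid and FXR axis genes, for 5 genes of the proximal list and for *Hoxb9*. Lines join the points of a gene and imply no order of arrays. *Hoxb9* was picked for its likeness to *Slc10a2* on these arrays. *Slc10a2* is lowest on G09 and highest on E09, where *Lct* (11.55 and 6.50) and *Gata4* (8.69 and 4.56) are highest and lowest.

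Other cells in the pieces were followed beside these values. The arrays rich in the 10 measured B cell genes, D09 and F09, were 1 of each genotype, and the B cell gene *Ms4a1* read 2.14 to 2.68 on the other 4. These 4 were not alike for every B cell gene. *Cd79a* read 5.59 on G09, against 3.59 on C09, 3.87 on E09 and 3.37 on H09. *Slc10a2* and *Fgf15* were neither highest nor lowest on D09 or F09. F09 was the lowest array for 2 of the 9 genes, *Fgfr4* at 5.98 and *Klb* at 3.74, where 23% of all clusters were lowest there. Without both arrays the *Fgf15* difference was 1.45. Adipocyte genes, 6 measured, had a mean of 5.92 to 7.59 in FIRE +/+ and 4.44 to 7.41 in FIRE -/- ileum, lowest on F09. Their median log2 difference was -1.04, with 5 negative and 1 positive. *Adipoq* read 3.53 on F09 and 7.96 on E09. *Cidec* went the other way, at a log2 difference of 0.53, and was highest on F09, at 8.52. The part of adipose tissue in the differences was not tested. T cell, smooth muscle, macrophage, hepatocyte and pancreatic acinar lists had median log2 differences of 0.15, -0.11, -0.21, -0.04 and -0.14, and no gene of any list passed between genotypes. Brush border genes of enterocytes, 9 of 9 called higher in ileum than in hippocampus, had a median deviation from their common mean of 0.0050 on G09 and of -0.16 to 0.20 on the other arrays. Their mean level was 11.13 on G09 and 10.66 to 11.34 elsewhere, a range widened by *Mep1a*, a meprin gene, at 7.38 on C09 and 7.48 on H09 against 11.07 on G09.

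The wider bile acid pathway showed no call between genotypes. Of 8 other bile acid transporters none passed, with a median log2 difference of 0.07. *Abcc2*, an apical exporter of conjugates that is stronger in the proximal gut, had the largest at 0.56 (standard error 0.35). *Slc10a1*, the uptake carrier of hepatocytes, differed by 0.28. It was the only 1 of these 8 that did not overlap between genotypes, where 8.04% of all clusters did not. Its ileum means of 2.20 in FIRE +/+ and 2.47 in FIRE -/- lay near its 2.26 in hippocampus. Of these 8 genes 3 were called higher and 2 lower in ileum than in hippocampus. Of 11 synthesis and conjugation genes none passed either, with a median of 0.08. *Acox2*, a peroxisomal oxidase that shortens the bile acid side chain, read 4.48, 5.02 and 4.68 in FIRE +/+ and 5.10, 6.37 and 6.58 in FIRE -/- ileum. Its genotypes did not overlap, and its log2 difference was 1.30 (standard error 0.38, limma adjusted p = 0.999). *Baat*, which conjugates bile acids to amino acids, and the hydroxylase gene *Cyp2c70* did not overlap either. They were lower on the FIRE -/- arrays, by log2 differences of -0.36 and -0.28. In all, 3 of these 11 genes did not overlap, where 8.04% of all clusters did not. *Cyp2c70* read 2.06 to 2.35 on average, near its 2.16 in hippocampus.

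Of 15 measured partner receptors and enterocyte regulators, a list that also holds *Gata4*, 13 were higher and 2 lower in ileum than in hippocampus, and none passed between genotypes, with a median log2 difference of -0.02. *Nr5a2*, which encodes the *Cyp7a1* and *Nr0b2* activator LRH-1, was lower on every FIRE -/- array at a log2 difference of -0.24 (standard error 0.11), but did not pass. *Cdx1*, an intestinal homeobox gene, was at -0.30 and also lower on every FIRE -/- array. These were the 2 of 15 genes that did not overlap, where 8.04% of all clusters did not. *Gpbar1*, which encodes the bile acid receptor TGR5 of the cell surface, was at -0.24. Of 5 other genes described as FXR-responsive none passed, with a median of 0.37. *Il18* was at 0.63 and *Osgin1* at 0.45. The sterol exporter genes *Abcg8* and *Abcg5* were at 0.37 and 0.28, and *Nos2*, the inducible nitric oxide synthase gene, was at -0.19. The 6 other endocrine FGF genes had a median of 0.11, with *Fgf23* at 0.22 and *Fgf21* at 0.19, and none passed.

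The genes whose values over the 6 ileum arrays were closest to *Fgf15* were found among 1015 clusters with at least 0.5 times its range. They were *Slc7a15*, *Pck1*, a gluconeogenic enzyme gene, and *Nt5e*, which encodes CD73, with root mean square differences of 0.43, 0.45 and 0.46 between centred log2 values. *Slc7a15* read 8.51, 7.36 and 6.98 in FIRE +/+ and 8.73, 8.60 and 8.59 in FIRE -/- ileum. For *Slc10a2*, among 300 clusters, the closest were *Tppp* at 0.65, the posterior homeobox gene *Hoxb9* at 0.66 and the mitochondrial carrier gene *Slc25a48* at 0.68. *Hoxb9* read 4.75, 6.84 and 6.93 in FIRE +/+ and 4.08, 3.41 and 5.88 in FIRE -/- ileum, lowest on G09 and highest on E09 like *Slc10a2*. Since it was picked for its likeness on these same 6 arrays, that shared order largely follows from the choice.

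The genotype difference of each of the 9 genes was also set against that in hippocampus, where all their values lay below the array medians. None differed between tissues (limma interaction, adjusted p = 0.938 for *Fgf15* at 1.44 and 0.9997 for the other 8), and 19 clusters did over the whole array.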

How the data were processed

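Total RNA of ileum and hippocampus was hybridised to Affymetrix Mouse Gene ST arrays. The authors summarised the arrays by RMA (version not given in the sources used here) and deposited 1 log2 value per transcript cluster for 12 arrays. RMA corrects background and equalises the distributions of arrays, so a change shared by most genes would be removed. Gene symbols are those of the platform annotation. Clusters with several symbols (1881) or none (12457) were left out, and no filter on signal was applied.

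The 21218 remaining clusters were fitted with lmFit and eBayes of limma 3.58.1 (R 4.3.3), two-sided, with Benjamini-Hochberg adjustment over all of them and a threshold of 0.05. The genotype test used the 6 ileum arrays without a covariate, as the study compared genotypes unpaired, and the tissue test used all 12 in a fit of 4 groups. Groups came from the labels, and array codes name single arrays. Nothing states whether the tissues came from the same mice, and p-values measure the spread between these samples.

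The 9 genes and the 18 gene lists (153 symbols, 11 without a cluster of their own) were chosen with earlier results of these data known. Genes were named by rule: all 9, up to 4 of each list by size of difference, and the 3 most alike for *Fgf15* and *Slc10a2*. Other genes were named after their values were seen. The mean level of a list is the mean log2 value over its measured genes. The hippocampus array B09, labelled female, read like a male for *Xist* and *Eif2s3y*, and its label was kept. The fits were tested on simulated data. Alternatives were another moderation, another scaling, other clusters, covariates, array weights, a shared fit and leaving out arrays. The number of arrays limits the precision.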

Additional observations from a re-analysis of the deposited data

How the results depend on the processing

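No clusters were called between genotypes in the ileum in 19 of 20 alternatives. The exception, without E09 and G09, was chosen after seeing the data and called 3 clusters lower (*Eif2s3y*, *Kdm5d* and *Uty*) and 1 higher (*Xist*), all sex-linked, where the remaining FIRE +/+ arrays were of males and the FIRE -/- arrays of females. Of the 9 genes *Fgf15* and *Nr0b2* kept their sign in all 20. Leaving out 1 array in turn, the log2 differences ran from -2.18 to -0.59 for *Slc10a2*, -0.94 to 0.22 for *Fabp6*, -0.30 to 0.039 for *Slc51a*, -0.29 to 0.067 for *Slc51b*, -0.88 to -0.28 for *Nr1h4*, 0.06 to 1.25 for *Nr0b2*, 0.96 to 1.60 for *Fgf15*, -0.33 to -0.09 for *Fgfr4* and -0.50 to 0.16 for *Klb*. Without E09 and G09 the sign turned for *Fabp6* (0.20), *Slc51a* (0.050) and *Slc51b* (0.14), and *Slc10a2* was at -0.23. Without D09 and F09 it turned for *Klb* (0.059). With the proximal list as a covariate it turned for *Slc10a2* (0.73), *Fabp6* (0.37), *Slc51a* (0.16), *Slc51b* (0.26), *Nr1h4* (0.33) and *Fgfr4* (0.088). With sex as a covariate *Slc10a2* was at -2.22 and *Nr1h4* at -0.81. All 9 genes were called higher in ileum than in hippocampus in all 18 alternatives. A second cluster could not be tried, since each gene has 1. No paired analysis was possible because the labels give no replicate numbers. The causes were not tested.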
